A study of Mus musculus with 42 samples.

Results

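The 8 members of the mouse BMP ligand group, Bmp1, Bmp2, Bmp3, Bmp4, Bmp5, Bmp6, Bmp7 and Bmp8b, were followed through all 12 expression tables of the series. They were taken as the rows with these 8 names among the 19232 gene names that occur in any table. All 8 have a row in the 4 stromal tables, and 6 have a row in the 8 tables of goblet cells and organoids, where Bmp4 and Bmp5 were not analysed. RNA was sequenced from goblet cells sorted by Muc2-mCherry and from stromal cells sorted by Gli1-tdTomato. Both came from mice of both sexes with the Gli1-CreERT2 driver, with 2 libraries per genotype and colon segment (proximal or distal). In the control mice (GWTM2 for goblet cells, GWTT for stromal cells) the driver acts alone, in GS4M2 and GS4T mice tamoxifen removes Smad4 through Smad4 fl/fl alleles, and in GA3M2 and GA3T mice it removes Alk3, listed as Bmpr1a, through Alk3 fl/fl alleles. Recombination is driven in Gli1+ cells, so by design no gene is removed in the goblet cells, and the stromal cells also carry a Rosa26-tdTomato reporter. All these mice, controls included, received tamoxifen and were 2 to 4 months old, and cells were sorted 30 days later. Colon organoids, all labelled wild type, were left untreated (Control) or given IL-1 (IL-1α with IL-1β) or IL-17A, each labelled with a dose of 10 nM, for 12 h or 72 h, with 3 libraries per group, in a medium that contains the BMP antagonist Noggin in every arm.

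BMPs are secreted dimeric growth factors of the TGF-β superfamily. They bind pairs of type I receptors (Bmpr1a, Bmpr1b, Acvr1) and type II receptors, which phosphorylate Smad1, Smad5 and Smad9, and these enter the nucleus with Smad4 to switch on genes such as Id1 to Id4 and Smad6. In the colon, stromal cells under the epithelium are a main source of the ligands, antagonists such as Grem1 are made around the crypt base, and BMP signaling restrains stem cells and favours differentiation towards the crypt top. The members play different roles. Bmp2 and Bmp4 form one close pair and Bmp5, Bmp6, Bmp7 and Bmp8b another subgroup, Bmp3 is known mainly for opposing other BMPs, and Bmp1, in spite of its name, is not a growth factor but an astacin metalloprotease that processes procollagen and cleaves the antagonist chordin.

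Promoter sequence could be matched for 4 of the 8 members in RefSeq on GRCm38.p6 (Bmp4, Bmp5, Bmp6 and Bmp8b). The 250 bases before the start are shown for 3 of them, because in stromal cells Bmp4 was the most abundant ligand, Bmp5 differed between colon segments and Bmp8b went from no reads to reads in both knockouts. Capitals mark CAGAC, a Smad box that Smad4 can contact, or its reverse complement, since both strands were searched.
Bmp4, minus strand of chr14:46390670-46390919: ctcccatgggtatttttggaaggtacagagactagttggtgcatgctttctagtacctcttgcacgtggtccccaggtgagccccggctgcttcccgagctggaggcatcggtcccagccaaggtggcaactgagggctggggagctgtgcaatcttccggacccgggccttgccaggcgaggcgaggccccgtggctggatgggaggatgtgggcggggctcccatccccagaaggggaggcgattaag
Bmp5, plus strand of chr9:75775115-75775364: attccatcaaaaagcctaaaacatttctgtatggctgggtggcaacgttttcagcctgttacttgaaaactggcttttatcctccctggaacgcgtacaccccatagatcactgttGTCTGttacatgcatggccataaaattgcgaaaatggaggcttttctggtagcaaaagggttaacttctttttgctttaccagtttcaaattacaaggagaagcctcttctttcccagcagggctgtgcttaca
Bmp8b, plus strand of chr4:123104911-123105160: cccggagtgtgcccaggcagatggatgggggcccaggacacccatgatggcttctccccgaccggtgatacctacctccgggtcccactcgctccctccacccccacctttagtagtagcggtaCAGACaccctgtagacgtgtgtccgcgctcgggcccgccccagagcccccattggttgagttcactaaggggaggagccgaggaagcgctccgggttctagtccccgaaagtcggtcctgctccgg
The window of Bmp4 held none of these letters, and those of Bmp5, Bmp6 and Bmp8b held 1 match each. Of all 32851 windows of the same length 42.2% held this motif on either strand. GGCGCC, a GC-rich Smad1/5 motif, was in none of the 4 windows and in 9.59% of all windows. The GC content was 63.2% for Bmp4, 42.8% for Bmp5, 68.8% for Bmp6 and 65.2% for Bmp8b, against a median of 52.4% over all windows. The letters describe these windows and say nothing of binding.

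Before the results, 3 facts on the libraries apply. Depth was 14222902 to 23686940 recovered reads in stromal cells, 15647603 to 20783127 in goblet cells and 14815170 to 17665812 in organoids. Gli1, the gene whose promoter drives recombination and the sort, was at 38.0 to 99.6 CPM (reads scaled so that every library has the same total on named genes) in 10 of the 12 stromal libraries but at 1.40 and 1.98 CPM in the second proximal GS4T and GA3T libraries, so the main results on proximal knockout cells are also given without them. Smad4 was at 43.3 and 48.9 CPM in proximal and 41.5 and 70.1 CPM in distal GS4T cells, below the 94.9 to 109 CPM of GWTT cells, a fitted log2 fold change of -1.09 (limma adjusted p = 0.010) and -0.96 (adjusted p = 0.042). Bmpr1a was lower in GA3T cells by log2 fold changes of -0.61 and -0.69 (limma adjusted p = 0.12 and 0.10). In bulk samples fewer cells of a type and less RNA per cell cannot be told apart, and the labels do not say how many mice a library holds, so the p-values measure the spread between these libraries.

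In control stromal cells Bmp4 was the most abundant member in both segments. On the scale of CPM per kb of exon, which allows genes to be compared, it stood at 216 ± 3.00 in proximal and 368 ± 3.27 in distal GWTT cells (SD, n = 2 each). In proximal cells it was followed by Bmp1 (58.3 ± 0.0764), Bmp6 (36.3 ± 12.5), Bmp2 (24.1 ± 3.45), Bmp5 (21.1 ± 0.497), Bmp7 (7.53 ± 0.757) and Bmp3 (4.34 ± 1.46). In distal cells the order was Bmp4, Bmp6 (95.9 ± 7.26), Bmp1 (62.6 ± 1.96), Bmp5 (62.6 ± 2.07), Bmp2 (49.1 ± 0.503), Bmp7 (35.4 ± 0.111) and Bmp3 (8.28 ± 0.0390). Distal Bmp1 and Bmp5 were the only neighbours in either order whose libraries overlapped. Bmp8b had 0 reads in all 4 GWTT libraries, which allows at most 0.185 CPM proximally and 0.179 CPM distally, from 3 reads in the shallower library of each pair; this limit covers counting error only.

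Seen as shares of the 7 growth factor genes without Bmp1, Bmp4 held 69.9% of the summed CPM per kb in proximal and 59.5% in distal GWTT cells. The share of Bmp4 was 55.7% and 46.7% in proximal and distal GS4T cells, and 49.6% and 48.4% in GA3T cells. Bmp7, a kidney and eye morphogen in development, held 2.44% in proximal GWTT cells, 11.7% in GS4T cells and 14.9% in GA3T cells. Its distal shares were 5.71%, 21.1% and 16.6%. In the first proximal GS4T and GA3T libraries alone, without those low in Gli1, Bmp4 held 54.4% and 50.5% and Bmp7 13.2% and 13.0%. The shares describe the make-up of the transcripts and no test was run on them.

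**Figure D1:**
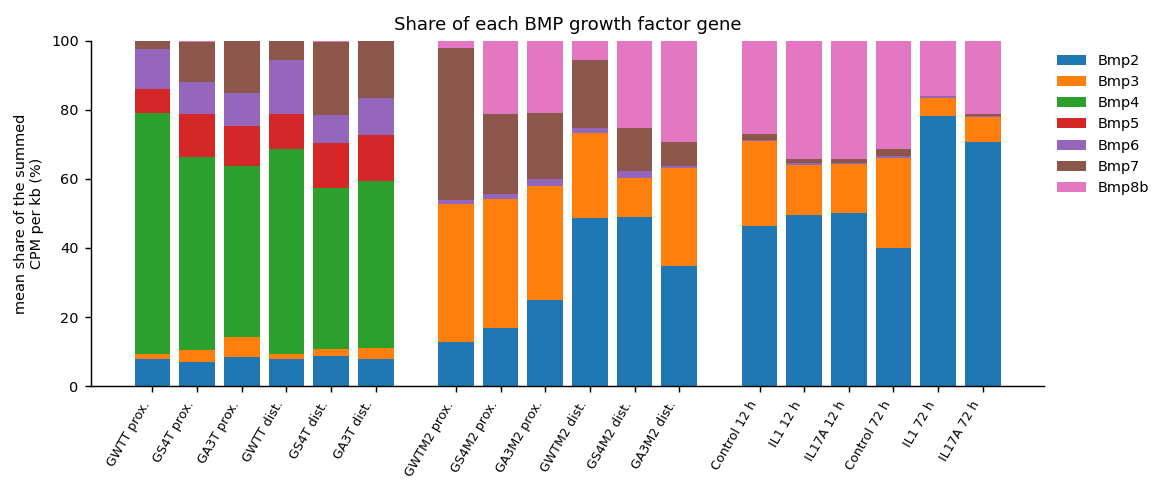
Stacked bars give the mean share (%) of 7 BMP growth factor genes in their summed CPM per kb of exon, for the 18 groups of stromal cells (left), goblet cells (middle) and organoids (right); Bmp4 and Bmp5 enter the stromal bars alone. Bmp4 takes 46.7% to 69.9% of every stromal bar, and Bmp2 reaches 78.3% in organoids after IL-1 for 72 h.

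Along the colon, control stromal cells had less of 3 members proximally. Bmp7 was at 32.4 and 28.1 CPM in proximal and at 142 and 143 CPM in distal GWTT cells. Bmp5, which shapes skeletal elements in development, was at 86.2 and 83.4 CPM proximally and 258 and 246 CPM distally. Bmp6, known as the inducer of hepcidin in the liver, was at 107 and 176 CPM proximally and 394 and 354 CPM distally. For each of these genes both proximal libraries lay below both distal ones. The log2 difference, proximal against distal, was -2.22 ± 0.23 (SE) for Bmp7, -1.56 ± 0.22 for Bmp5 and -1.44 ± 0.25 for Bmp6, with limma adjusted p of 0.0047, 0.011 and 0.024. These SE and p-values take their spread from all 12 stromal libraries, knockouts included.

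The 3 members called were 3 of 8 tested, where 1.39% of all 15353 genes were called, and the median log2 difference of the 8 was -0.996 against -0.02 over all genes. Bmp2 (-1.03, limma adjusted p = 0.20), Bmp3 (-0.96, 0.20) and Bmp4 (-0.77, 0.11) were lower proximally without passing, and Bmp1 had -0.10 (0.75). The telocyte markers, a list of 8 genes of the subepithelial cells known for BMP expression, summed to 1371 to 1402 CPM in proximal and 1863 to 1954 CPM in distal GWTT cells, and 3 of 8 were called lower proximally. Macrophage markers summed to 201 to 320 CPM proximally and 664 to 771 CPM distally, smooth muscle markers to 329 to 456 and 977 to 1014 CPM, and plasma and B cell markers to 4218 to 7223 and 9989 to 12570 CPM. The part of these cell types in the segment difference was not tested. Without the first or without the second distal library no member was called, and without the first proximal library, which was male where the other GWTT libraries were female by their reads from the sex chromosomes, only Bmp7 was called. With sex as a block Bmp6 lost its call (-1.42).

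In knockout stromal cells the segment difference did not pass for any member. None of 8 was called between proximal and distal GS4T cells by limma or edgeR, where these called 0.0782% and 0.0651% of all genes and 3 members had an unadjusted p under 0.05. Between GA3T segments limma and edgeR also called 0 members, with 0.0912% of all genes called by each and 1 member at an unadjusted p under 0.05. Bmp7 was at 241 and 146 CPM in proximal and 366 and 314 CPM in distal GS4T cells, and at 259 and 362 against 318 and 376 CPM in GA3T cells. Proximal and distal GA3T libraries thus overlapped for Bmp7, unlike the controls. Without the second proximal library, the one with little Gli1, limma again called 0 members in either genotype, and Bmp7 had a log2 difference of -0.49 in GS4T and -0.42 in GA3T cells.

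**Figure D2:**
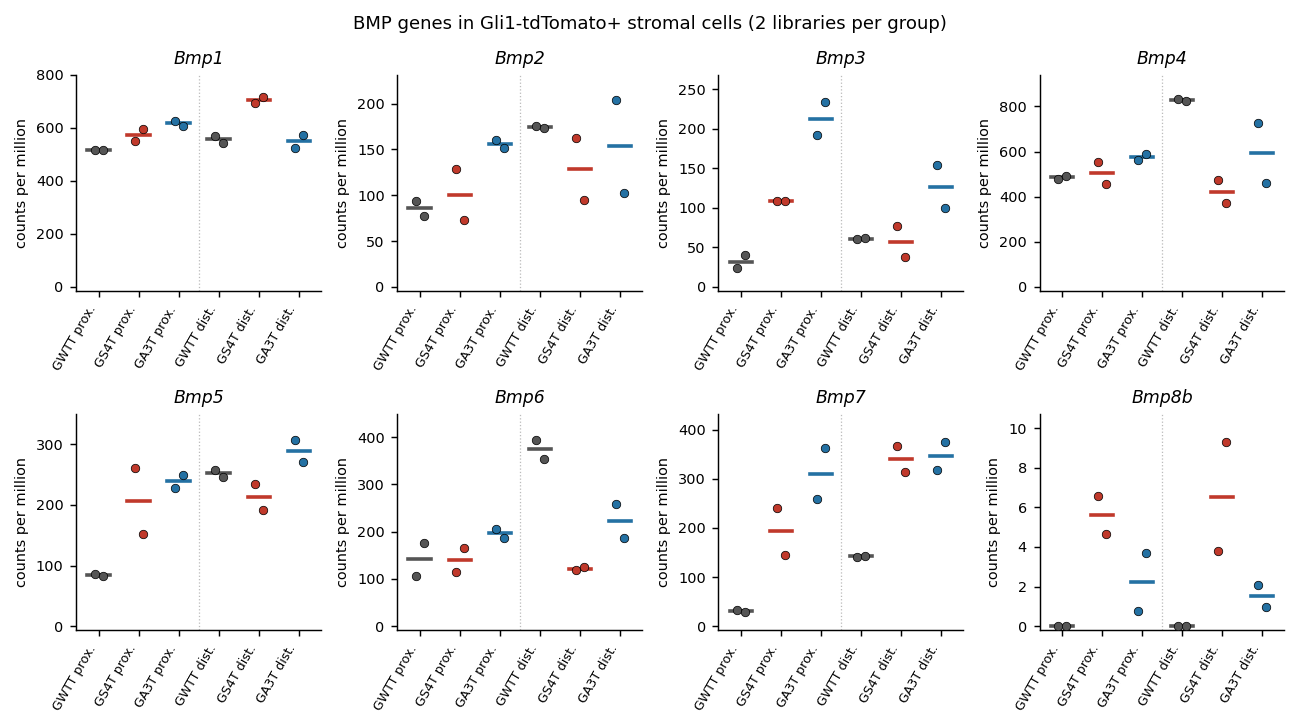
Points give the CPM of each of the 8 members in each stromal library and bars the mean of 2 libraries, for GWTT (grey), GS4T (red) and GA3T (blue) cells of the proximal (left) and distal (right) colon; each panel has its own linear axis from 0. Bmp7 lies above GWTT in every knockout library of its segment, Bmp8b is at 0 in all 4 GWTT libraries, and distal Bmp6 falls from 354 to 394 CPM in GWTT to 118 to 125 CPM in GS4T cells.

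Removal of Smad4 went with higher Bmp7 in proximal stromal cells. Normalized counts of Bmp7 were 3920 and 2488 in GS4T and 548 and 466 in GWTT libraries, a log2 fold change of 2.63 ± 0.24 (SE; limma adjusted p = 0.0068). Bmp3 stood at 1778 and 1860 against 414 and 660 normalized counts, a rise of 1.80 ± 0.23 (adjusted p = 0.013). Both Bmp5 libraries, with 4252 and 2600 normalized counts, also lay above the 1458 and 1383 of GWTT cells, by 1.23 ± 0.24 (adjusted p = 0.032). Bmp8b, known from brown fat and germ cell development, went from 0 reads to 107 and 79.7 normalized counts. Its mean of 5.62 CPM is at least 30.3-fold higher than the limit of 3 reads in a GWTT library (limma adjusted p = 0.0081), and the lower GS4T library alone gives at least 25.2-fold.

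These 4 of 8 members, Bmp8b included, were all called higher, where limma called 9.61% of 15319 genes. The median log2 fold change of the 8 was 0.70 against 0.02 over all genes. The other 4 were not called, with Bmp1 at 0.14 (adjusted p = 0.46), Bmp2 at 0.18 (0.68), Bmp4 at 0.04 (0.84) and Bmp6 at -0.01 (0.99). Bmp4, the most abundant of them, was at 9031 and 7765 normalized counts in GS4T and at 8123 and 8127 in GWTT libraries, which overlap. Without the second GS4T library, the one with little Gli1, Bmp7 and Bmp5 were called and Bmp3 (1.77, limma adjusted p = 0.089) and Bmp8b (adjusted p = 0.081) were not. Without the first GS4T library only Bmp7 was called, and Bmp5 came to 0.87.

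In distal stromal cells Smad4 removal went with more Bmp7 and Bmp8b and with less Bmp6. Normalized counts of Bmp7 were 6002 and 5249 in GS4T and 2327 and 2315 in GWTT libraries (log2 fold change 1.27 ± 0.11, limma adjusted p = 0.0022). Bmp6 was at 1941 and 2090 against 6462 and 5747, a fall of -1.60 ± 0.11 (adjusted p = 0.0014). Bmp8b was at 62.0 and 155 normalized counts in GS4T cells against 0 reads in GWTT cells, at least 36.5-fold higher by the mean and at least 21.1-fold by the lower library alone (limma adjusted p = 0.0044). All 3 genes had libraries that did not overlap with the controls.

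Of the 8 members 2 were thus called higher and 1 lower in distal GS4T cells, where 14.0% of 15262 genes were called, and the median of the 8 was -0.20 against 0.00 over all genes. Bmp4 was at 7766 and 6193 against 13663 and 13359 normalized counts, a log2 fold change of -0.96 ± 0.15 (limma adjusted p = 0.0097) that fell just short of the fold threshold of 1 and passed it without the first GS4T library (-1.13). Bmp1 (0.36, adjusted p = 0.080), Bmp2 (-0.47, 0.20), Bmp3 (-0.17, 0.73) and Bmp5 (-0.23, 0.25) were not called. Each called member kept its call without any single library. The call of Bmp8b alone was lost under a filter on a mean of at least 50, which raised its adjusted p to 0.051.

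Removal of Alk3 gave the largest fold changes of Bmp7 and Bmp3 among the 4 stromal comparisons, in proximal cells. Bmp7 was at 4626 and 6352 normalized counts in GA3T and 577 and 490 in GWTT libraries, a log2 fold change of 3.35 ± 0.19 (limma adjusted p = 0.035). For Bmp3 the values were 3439 and 4104 against 435 and 694 (2.77 ± 0.25, adjusted p = 0.0496), and for Bmp5 they were 4074 and 4382 against 1534 and 1454 (1.5 ± 0.11, adjusted p = 0.049). In all 3 genes both GA3T libraries lay above both controls. Bmp8b was at 14.0 and 64.5 normalized counts against 0 reads, at least 12.0-fold higher by the mean, without passing (limma adjusted p = 0.11). This bound rests on the second GA3T library, the one with little Gli1, and without it the bound is at least 4.23-fold.

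The 3 of 8 members called higher in proximal GA3T cells compare with 0.358% of 15346 genes called, and the median of the 8 was 1.19 against 0.01 over all genes. Bmp2 was at 2873 and 2658 against 1676 and 1341 normalized counts (0.88 ± 0.15, limma adjusted p = 0.080), and Bmp1 (0.26, 0.31), Bmp4 (0.25, 0.31) and Bmp6 (0.52, 0.30) were not called either. All 3 calls lie close to the threshold: edgeR called no member (adjusted p = 0.062 for each of the 3) and 0% of all genes, with 5 members at an unadjusted p under 0.05 in limma, whereas DESeq2 called 4 members and 6.29% of all genes. No member was called without the second GA3T library, the one with little Gli1 (Bmp7 3.12, adjusted p = 0.086; Bmp3 2.64, 0.11; Bmp5 1.45, 0.091), or without the first GWTT library. Bmp3 also lost its call without the first GA3T library (2.90), and Bmp5 without the second GWTT library (1.46).

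In distal GA3T cells no member passed. Bmp7 was at 5661 and 7245 normalized counts against 2655 and 2634 (log2 fold change 1.28 ± 0.15, limma adjusted p = 0.084), Bmp3 at 2740 and 1929 against 1142 and 1136 (1.01 ± 0.19, 0.12), and Bmp6 at 4597 and 3607 against 7372 and 6541 (-0.77 ± 0.16, 0.13). Bmp8b was at 36.8 and 19.1 normalized counts against 0 reads, at least 8.56-fold higher by the mean and at least 5.55-fold by the lower library alone (limma adjusted p = 0.13). The GA3T and GWTT libraries did not overlap for any of these genes. The others were Bmp1 (-0.02), Bmp2 (-0.28), Bmp4 (-0.52) and Bmp5 (0.19), with adjusted p from 0.29 to 0.95. limma and edgeR called 0 members and 0% of all genes, 4 members had an unadjusted p under 0.05, and DESeq2 called 3 members and 5.03% of all genes. Without the first GA3T library, which was male, or with sex as a block, Bmp7 was called (1.45).

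The 2 knockouts share their control libraries, so their fold changes are not independent of each other and are only set side by side. For Bmp7 the log2 fold changes in GS4T and GA3T cells were 2.63 and 3.35 proximally and 1.27 and 1.28 distally. For Bmp6 they were -0.01 and 0.52 proximally and -1.60 and -0.77 distally. Bmp3 had 1.80 and 2.77 proximally and -0.17 and 1.01 distally.

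**Figure D3:**
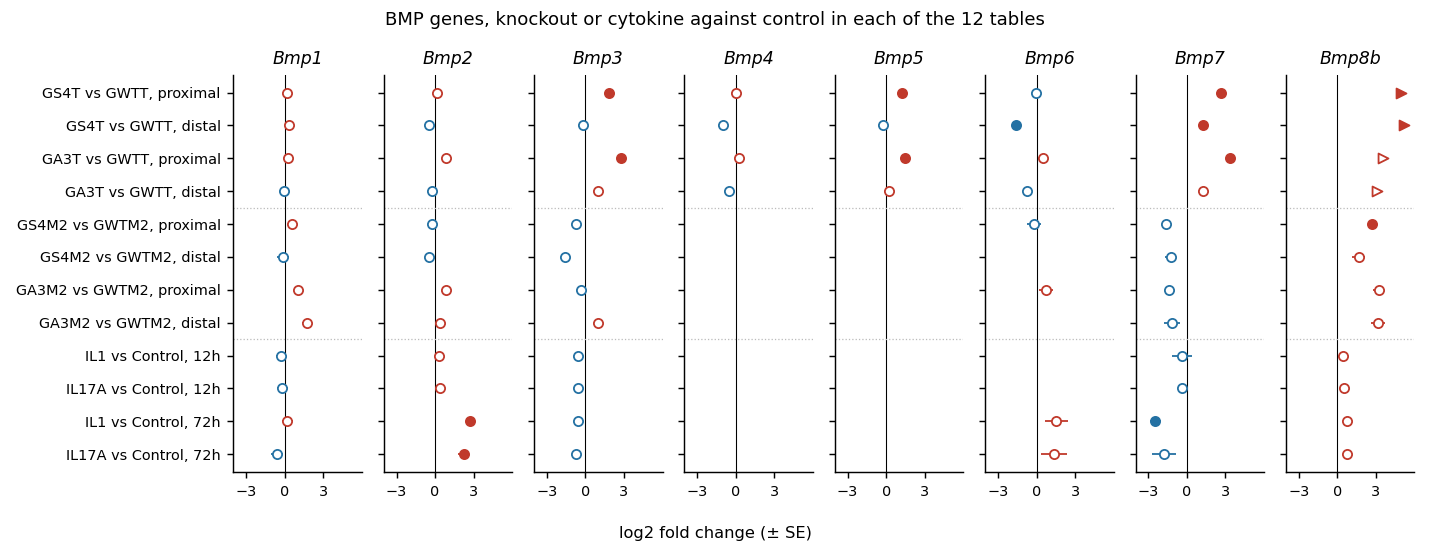
Each point is the log2 fold change (± SE, limma) of a member against the control of its table, for the 4 stromal, 4 goblet cell and 4 organoid comparisons from top to bottom; filled points passed an adjusted p of 0.05 and a log2 fold change of 1, red is higher and blue lower. Triangles for Bmp8b in stromal cells mark lower bounds set by 0 reads in the controls. Bmp7 is to the right in all 4 stromal comparisons and to the left in all 8 others, where only IL-1 for 72 h is filled.

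Whether the effect of a knockout differed between segments was tested as an interaction. No member passed for GS4T, where limma called 0.0456% and edgeR 0.0326% of all genes and neither called a member, or for GA3T, with 0.0261% and 0.0391% and again no member. In each of these tests 5 members had an unadjusted p under 0.05. The log2 effect, proximal minus distal, was 1.36 ± 0.33 for Bmp7, 1.97 ± 0.47 for Bmp3, 1.48 ± 0.30 for Bmp5 and 1.61 ± 0.35 for Bmp6 in GS4T cells (limma adjusted p = 0.14 to 0.19). In GA3T cells it was 2.04 ± 0.33 for Bmp7 (adjusted p = 0.24), 1.73 ± 0.47 for Bmp3, 1.29 ± 0.30 for Bmp5 and 1.28 ± 0.35 for Bmp6. Without the second proximal GS4T library, the one with little Gli1, Bmp5 was called in the GS4T test (1.87). Without the second proximal GA3T library no member was called in the GA3T test, with 1.80 for Bmp7 (limma adjusted p = 0.78).

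Markers of other cells moved with genotype in the stromal sorts. The 6 epithelial markers summed to 13.1 to 496 CPM in proximal and 55.2 to 175 CPM in distal GWTT cells, 1200 to 1578 and 684 to 1364 CPM in GS4T cells, and 488 to 788 and 431 to 1009 CPM in GA3T cells, while goblet cells held 8506 to 13380 CPM. Neutrophil markers summed to 2.08 to 6.49 CPM over all GWTT cells, 66.9 to 226 CPM in GS4T and 13.5 to 48.9 CPM in GA3T cells. Telocyte markers summed to 2182 to 3756 CPM in GS4T and 2646 to 3495 CPM in GA3T cells, above the GWTT values given earlier, and macrophage markers to 1006 to 2304 and 835 to 1548 CPM. Cd34 fibroblast markers were lower, with 2183 to 2868 CPM in proximal GS4T against 7423 to 8254 CPM in proximal GWTT cells. Plasma and B cell markers summed to 1302 to 2415 CPM in proximal and 344 to 1900 CPM in distal GS4T cells and to 2463 to 2490 and 5266 to 6045 CPM in GA3T cells, below the GWTT values of each segment. Smooth muscle markers summed to 934 to 1228 CPM in GS4T and 725 to 1086 CPM in GA3T cells proximally, above GWTT, and to 950 to 1592 and 1028 to 1148 CPM distally. The part of these cells in the BMP results was not tested.

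The levels of single members in goblet cells were set beside those in the stromal sorts. Bmp7 was at most 31.6 CPM and Bmp3 at most 54.4 CPM in any goblet cell library, below the 146 to 376 CPM of Bmp7 in all knockout stromal libraries and below the 109 to 234 CPM of Bmp3 in proximal knockout cells. Goblet cells held 1.20 to 32.6 CPM of Bmp8b, a range that overlaps the 0.784 to 9.28 CPM of the knockout stromal libraries. The second proximal GWTT library had 496 CPM of epithelial markers and 0 reads of Bmp8b, and the first proximal GA3T library had 488 CPM and 0.784 CPM of Bmp8b. Proximal goblet cells themselves held 1.20 and 1.21 CPM of Bmp8b in GWTM2 and 8.05 and 16.1 CPM in GA3M2 mice. These 2 stromal libraries therefore cannot show the part of epithelial cells in the Bmp8b values, which was not tested.

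The other genes of the pathway were counted in fixed lists, beside 9.61% of all genes called in proximal and 14.0% in distal GS4T cells. In GS4T cells, BMP target genes were called lower for 3 of 9 proximally (Id2 -1.57, Id4 -2.67, Bambi -1.55) and for 5 of 9 distally (Id1 -1.48, Id2 -1.06, Id3 -1.09, Id4 -2.85, Bambi -1.42), and none was called higher. Among 14 secreted BMP antagonists the chordin-like Chrdl2 rose by 4.66 and 3.75 and Bmper by 1.41 and 2.77 in proximal and distal cells, while Chrdl1 fell by 2.97 and 2.92. Grem1 (2.04) and Fst (1.77) rose distally. Of the proprotein convertases, which cut BMP precursors, Pcsk6 fell in both segments (-1.49 and -2.69) and Pcsk5 proximally (-1.01). The tolloid proteases and enhancers, relatives and helpers of Bmp1, had 2 of 4 lower proximally (Tll1 -2.64, Pcolce2 -3.40) and 1 of 4 lower distally (Pcolce2 -3.19). Against these shares of all genes, a count of 1 or 2 in a list this short says little about the list.

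Receptors and Smads were counted in the same way. Of 10 BMP receptors and coreceptors the coreceptor Rgmb fell in GS4T cells of both segments (-2.28 and -1.23) and Acvr2a proximally (-1.19), and of the 4 BMP Smads only the deleted Smad4 proximally and Smad9 distally (-2.39) were called. Among other BMP and GDF family ligands Gdf10 fell in both segments (-2.95 and -1.22) and Gdf6 proximally (-1.98). Without the second proximal GS4T library, the one with little Gli1, the proximal calls of Id4 (-3.09), Pcolce2 (-3.72), Rgmb (-2.49), Gdf10 (-2.76) and Smad4 (-1.21) held, and all other proximal calls named here were lost. In GA3T and goblet cell comparisons limma called no gene of these lists. All these pathway calls have limma adjusted p under the threshold used throughout, and the list medians in GS4T cells for BMP target genes were -0.89 and -1.06 beside 0.02 and 0.00 over all genes.

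Genes with the most similar pattern over the 12 stromal libraries were listed for each member as a description, from 13493 genes by Pearson's r of log2 CPM. For Bmp7 they were Cpa6 (0.98), Lama5 (0.98) and Gpc1 (0.98), and for Bmp5 Catip (0.97), Sema3f (0.97) and the telocyte transcription factor Foxl1 (0.96). Bmp4 went with Gnb4, H2-M3 and Fat4 (0.95 to 0.96), Bmp6 with Spry1, Pianp and Hcfc2 (0.91 to 0.95), Bmp3 with Jup, Dtx4 and Tgm2 (0.92 to 0.93), Bmp2 with Gpatch2l, Nxf7 and Glp2r (0.93 to 0.97) and Bmp1 with Clba1, Lcn2 and Il20rb (0.87 to 0.89). For Bmp8b the first gene was Ly6g (0.99), followed by Slc35c1 (0.98) and Trim15 (0.97). Among the members themselves Bmp5 and Bmp7 were closest (0.89) and Bmp6 and Bmp8b farthest (-0.52). The 12 points come from 6 groups of 2 libraries, and no correlation within groups was computed.

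Ly6g is a neutrophil marker on its usual cells, so its values were set beside those of Bmp8b. It was at 0 to 0.298 CPM in GWTT, 15.6 to 60.6 CPM in GS4T and 2.75 to 11.7 CPM in GA3T libraries. The neutrophil markers together, Ly6g among them, summed there to 2.08 to 6.49, 66.9 to 226 and 13.5 to 48.9 CPM. Each sum exceeded the highest Ly6g value of its genotype, so other neutrophil markers were also read in the stromal sorts. In goblet cells it was at 0.378 and 1.06 CPM in proximal GWTM2 cells, 5.94 and 13.4 CPM in GS4M2 cells and 18.5 and 80.9 CPM in GA3M2 cells, where the neutrophil genes S100a8 and S100a9 did not exceed 0.827 CPM. Untreated organoids, grown from colon crypts, held 133 to 169 CPM of Ly6g. The part of neutrophils in the Bmp8b values was not tested.

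In control goblet cells other members led than in stromal cells. On the scale of CPM per kb Bmp7 (7.04 ± 1.15) and Bmp3 (6.36 ± 1.41) led in proximal GWTM2 cells (SD, n = 2), with overlapping libraries, before Bmp2 (2.02 ± 0.194), Bmp1 (0.459), Bmp8b (0.310) and Bmp6 (0.184). In distal GWTM2 cells Bmp2 came first (4.82 ± 0.679), ahead of Bmp3 (2.50 ± 0.839) and Bmp7 (1.96 ± 0.356), which overlapped. The summed level of the growth factors analysed there was 15.9 and 9.97 CPM per kb, against 309 and 619 in proximal and distal GWTT cells, where Bmp4 and Bmp5 are included.

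Between control stromal and control goblet cells most members differed. Proximally limma called Bmp1 (log2 difference 6.85), Bmp6 (6.82) and Bmp2 (3.48) higher in stromal cells and Bmp8b lower, 4 of 6 members where 43.3% of 13028 genes were called. Bmp7 was not called there, with 32.4 and 28.1 CPM in stromal and 25.0 and 31.6 CPM in goblet cells (0.10, adjusted p = 0.63), nor was Bmp3 (-0.57, 0.14). Distally all 6 were called beside 42.9% of all genes, with Bmp6 (8.51), Bmp1 (8.15), Bmp7 (4.10), Bmp2 (3.32) and Bmp3 (1.74) higher in stromal cells. Bmp8b was the 1 member higher in goblet cells in both segments, with 1.20 and 1.21 CPM proximally and 1.64 and 2.63 CPM distally against 0 reads in stromal cells. It met the minimum mean CPM through the goblet cell libraries alone, so its calls here add no support. Each cell type came from its own sort and mouse line, so a difference in handling cannot be told apart from one in cell type.

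Removal of Smad4 in the stroma went with more Bmp8b in proximal goblet cells. Bmp8b was at 118 and 172 normalized counts in GS4M2 and at 20.6 and 20.5 in GWTM2 libraries, a log2 fold change of 2.73 ± 0.31 (limma adjusted p = 0.039). Bmp7 was at 200 and 117 against 426 and 541 normalized counts (-1.64 ± 0.28, adjusted p = 0.083), and Bmp3 at 414 and 550 against 676 and 933 (-0.73 ± 0.21, 0.18). For these 3 genes each knockout library lay outside the control range. Bmp1 (0.55), Bmp2 (-0.23) and Bmp6 (-0.19) had adjusted p from 0.40 to 0.89.

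The 1 of 6 members called by limma compares with 0.325% of 13246 genes, edgeR called 1 member beside 0.385% of genes, and DESeq2 called 2, Bmp7 included, beside 2.04%. By their sex chromosome reads 2 goblet libraries, the first GWTM2 one of either segment, were female and the 10 others male, and with sex as a block Bmp8b had an adjusted p of 0.059. It also lost its call without the second GWTM2 library (log2 fold change 2.73) or without the first (3.01) or second (2.46) GS4M2 library.

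In distal GS4M2 goblet cells limma and edgeR called 0 of 5 members and 0% of genes, 3 members had an unadjusted p under 0.05, and DESeq2 called 1 member, Bmp3, beside 1.13% of genes. Bmp3 was at 101 and 112 normalized counts against 250 and 414 in GWTM2 cells (-1.59 ± 0.30, limma adjusted p = 0.37). Bmp8b was at 80.6 and 181 against 29.1 and 47.5 (1.67 ± 0.50, 0.43), and Bmp7 at 84.4 and 38.6 against 121 and 161 (-1.28 ± 0.44, 0.45). With sex as a block, or without the first, female GWTM2 library, Bmp3 was called (-1.95). Bmp6 was below the filter on low values, with 14.2 and 3.68 normalized counts in GS4M2 cells.

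In the goblet cell sorts the highest mean values of Bmp8b went with removal of Alk3 in the stroma. These GA3M2 sorts also held less RNA of the 8 goblet cell markers. Proximally the markers summed to 10022.9 to 13564.5 CPM in GA3M2, 30905.3 to 34292.6 CPM in GWTM2 and 36561.4 to 40017.3 CPM in GS4M2 libraries. The distal sums were 15258.5 to 24443.5, 35907.5 to 63129.8 and 42153.3 to 49505.9 CPM. The part of this marker difference in the GA3M2 values of the members was not tested. In proximal GA3M2 cells Bmp8b was at 147 and 308 normalized counts against 21.9 and 21.7 (3.23 ± 0.43, limma adjusted p = 0.086), and in distal GA3M2 cells at 206 and 533 against 27.8 and 45.9 (3.18 ± 0.53, 0.28). Both libraries of each segment lay above the controls, the second well above the first. Proximal Bmp7 was at 265 and 144 against 453 and 572 normalized counts (-1.38 ± 0.33, adjusted p = 0.20), Bmp2 at 225 and 257 against 122 and 139 (0.88 ± 0.24, 0.23) and Bmp1 at 149 and 157 against 58.5 and 89.0 (1.07 ± 0.32, 0.24). Distal Bmp1 was at 77.3 and 91.1 against 21.1 and 29.5 (1.71 ± 0.37, adjusted p = 0.31), and distal Bmp3 at 605 and 646 against 239 and 400 (1.01 ± 0.28, 0.33).

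None of these GA3M2 values of the members passed in limma. Proximally limma called 0 of 6 members and 0.0899% of genes, edgeR 0 members and 0.105% of genes, and DESeq2 called 2 members, Bmp7 and Bmp8b, beside 3.23% of genes, with 4 members at an unadjusted p under 0.05. Distally limma and edgeR called 0 of 5 members and 0% of genes, with 3 members at an unadjusted p under 0.05, and DESeq2 called 2, Bmp1 and Bmp8b, beside 1.83%. Without the first proximal GA3M2 library Bmp8b (3.76) and Bmp7 (-1.82) were called. Without the first distal GWTM2 library, the female one, or with sex as a block, distal Bmp8b was called (2.82), and without the second it was called with Bmp1 and Bmp3 (3.53, 1.94 and 1.38).

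**Figure D4:**
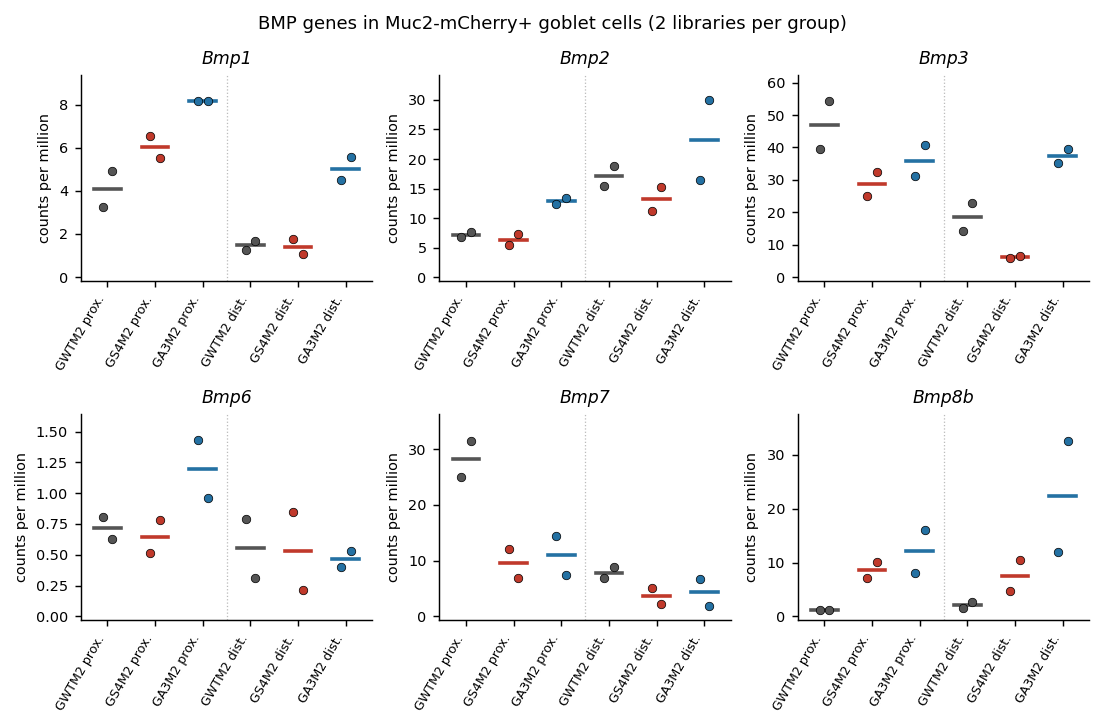
Points give the CPM of the 6 members with a row in goblet cell tables, per library, and bars the mean of 2 libraries, for GWTM2 (grey), GS4M2 (red) and GA3M2 (blue) cells of the proximal (left) and distal (right) colon; each panel has its own linear axis from 0. Bmp8b lies at 1.20 to 2.63 CPM in the 4 GWTM2 libraries and at 4.79 to 32.6 CPM in the 8 others, and Bmp7 is highest in proximal GWTM2 cells.

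The organoid controls need a remark before their results. The second 12 h and the first 72 h control libraries held the same reads, and so did those numbered 4 at each time (12993 of 12995 and 13013 of 13015 genes with at least 20 reads, 99.98% each), so the 6 control columns hold 4 distinct libraries and the 18 organoid columns 16. At which time the shared ones were taken cannot be told. Distinct here means not holding the same reads. In 3 pairs the libraries were near-identical, namely 72 h controls 2 and 4, and libraries 3 and 4 of each 12 h cytokine arm. Their reads differed by a chi-square per degree of freedom of 3.10 to 3.43, against 66.5 to 74.7 for the other pairs of these groups. They may not be independent, and p-values that count them as separate replicates may be too small. Of the 16 distinct organoid libraries 7 were female and 9 male by their reads from the sex chromosomes, and all 3 IL-17A libraries at 72 h were male. Results against Control at 72 h and differences between the times are therefore given in 3 ways. These are the columns as labelled, without the shared libraries, and with all 4 distinct controls set against each arm by CPM. Results at 12 h are given with the columns as labelled alone. Where members were called, the outcome with near-identical libraries averaged is also given.

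Organoids in Control medium expressed Bmp2, Bmp8b and Bmp3. At 72 h the levels were 11.6 ± 1.72 CPM per kb for Bmp2, 9.17 ± 1.57 for Bmp8b and 7.50 ± 1.51 for Bmp3, and at most 0.577 for Bmp7, Bmp1 and Bmp6 (SD, n = 3). This n includes both near-identical controls. At 12 h neither cytokine moved a member past the test. With IL-1 limma and edgeR called 0 of 5 members, beside 0.0542% and 0.0155% of genes, and DESeq2 also called 0, beside 0.333%. With IL-17A the same 3 tools called 0 of 5 members, beside 0.0385%, 0.0308% and 0.393% of genes. In both arms Bmp3 was the 1 member with an unadjusted p under 0.05, at 480, 599 and 637 normalized counts with IL-1 against 709, 1089 and 757 (-0.56 ± 0.20, limma adjusted p = 0.89), and at -0.55 ± 0.19 with IL-17A (adjusted p = 0.91).

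After 72 h of IL-1, Bmp2 was at 4169, 3117 and 4869 normalized counts against 533, 623 and 706 in Control, a log2 fold change of 2.69 ± 0.20 (limma adjusted p = 0.0020). Bmp7 was at 6.02, 5.98 and 4.39 against 35.5, 41.9 and 27.1 normalized counts, a fall of -2.46 ± 0.44 (adjusted p = 0.0061) at a low level. Every treated library of these genes lay outside the range of the controls. Bmp8b was at 843, 924 and 865 against 435, 562 and 603 normalized counts (0.73 ± 0.17, adjusted p = 0.014), below the fold threshold. Bmp3 (-0.62, adjusted p = 0.065), Bmp1 (0.19, 0.74) and Bmp6 (1.55, 0.21) were not called.

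These 2 of 6 members compare with 23.0% of 13023 genes called, and the median of the 6 was 0.46 against 0.00 over all genes. Without the shared controls 1 Control library is left, assumed to vary like the treated ones, and neither was called (Bmp2 2.68, limma adjusted p = 0.056; Bmp7 -2.74, 0.13). With the 4 distinct controls both were called, Bmp2 with 2.21 (limma adjusted p = 0.00043) and Bmp7 with -1.67 (0.017) on the log2(CPM + 0.5) scale. This fit counts the near-identical controls as separate libraries. With these averaged instead, in the fit of the columns as labelled, 2 of 6 members were still called. Within sexes Bmp2 was 4.16-fold of the controls in the 1 female library and 4.61-fold in the 2 male ones, and Bmp7 was at a ratio of 0.154 and 0.144. The controls of these ratios are the 2 distinct ones of each sex, pooled over both times, so 12 h libraries are among them.

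IL-17A for 72 h raised Bmp2, and Bmp7 did not pass. Bmp2 was at 3672, 1325 and 4853 normalized counts against 532, 620 and 704 (log2 fold change 2.22 ± 0.46, limma adjusted p = 0.042), and the 3 treated libraries lay above the controls. Bmp7 was at 2.24, 44.2 and 6.30 against 35.4, 41.7 and 27.1 (-1.78 ± 0.94, adjusted p = 0.20), so the second treated library lay above the controls and the other 2 below. That same library had the lowest Bmp2 of its group, and Bmp8b, at 720, 879 and 1155 against 434, 559 and 602, did not single it out (0.77 ± 0.23, adjusted p = 0.065). Bmp3 (-0.75, 0.11), Bmp6 (1.36, 0.35) and Bmp1 (-0.59, 0.37) were not called.

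Bmp2 was 1 of 6 members called after IL-17A at 72 h, where 7.94% of 13073 genes were called, and its call depended on single libraries. It was lost without any 1 of the 3 Control libraries and without the IL-17A library numbered 1 or 3, with log2 fold changes of 1.84 to 2.32 among these fits, and without the shared controls (2.21, limma adjusted p = 0.46). Without the second IL-17A library, Bmp2 (2.78), Bmp7 (-2.86) and Bmp3 (-1.04) were all called. With the 4 distinct controls Bmp2 was called (1.75, limma adjusted p = 0.0015) and Bmp7 was not (-1.10, 0.10). This fit counts the near-identical controls as separate libraries. With these averaged instead, in the fit of the columns as labelled, 0 members were called. Against the 2 distinct male controls, pooled over both times, Bmp2 was 3.38-fold of their mean. Of these the one at 66.3 CPM was labelled 12 h alone, and the one at 35.3 CPM was a shared library.

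No member passed between the cytokines. At 12 h limma and edgeR called 0 of 6 members and 0% of genes, and at 72 h 0 of 6 members beside 0.0151% of genes in both tools, and in neither test did a member reach an unadjusted p under 0.05. The log2 difference, IL-1 against IL-17A at 72 h, was 0.46 ± 0.33 for Bmp2 and -0.57 ± 0.54 for Bmp7. The differences themselves come from treated libraries alone. Their SE and p-values take the spread from all 18 organoid columns, the shared controls included.

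The IL-1 effect on Bmp2 was larger at 72 h than at 12 h, a call that depended on single libraries. Bmp2 was at 75.2, 50.9 and 46.8 CPM after 12 h of IL-1 and at 216, 185 and 252 CPM after 72 h, against 66.3, 35.3 and 47.6 CPM and 35.3, 41.3 and 47.6 CPM in the controls of the 2 times. The difference of the log2 effects, 72 h minus 12 h, was 2.15 ± 0.46 (limma adjusted p = 0.037), 1 of 6 members called beside 11.3% of 13222 genes. The call was lost in 8 of the 12 fits that left out 1 library, namely the 12 h controls numbered 1 or 2, the 72 h controls numbered 2 or 4, the 12 h IL-1 libraries numbered 3 or 4, and the 72 h IL-1 libraries numbered 1 or 3 (1.93 to 2.38, limma adjusted p up to 0.108). For IL-17A no member was called by limma or edgeR, beside 0.484% and 1.15% of genes, with 1 member, Bmp2 (1.62 ± 0.46, adjusted p = 0.070), at an unadjusted p under 0.05. Because 2 controls are the same reads at both times, these effects rest on 4 control libraries, of which 2 were near-identical. With near-identical libraries averaged, the IL-1 call was lost. With each distinct control entered once, the controls of both times form 1 group and drop out of this difference. What is left compares treated libraries at 72 h with treated libraries at 12 h, with no control subtracted. Bmp2 was called there for both cytokines (1.93 for IL-1, limma adjusted p = 0.0031, and 1.40 for IL-17A, 0.011), which does not test a difference of effects. Without the shared libraries the IL-1 difference of effects was 2.61 and not called.

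**Figure D5:**
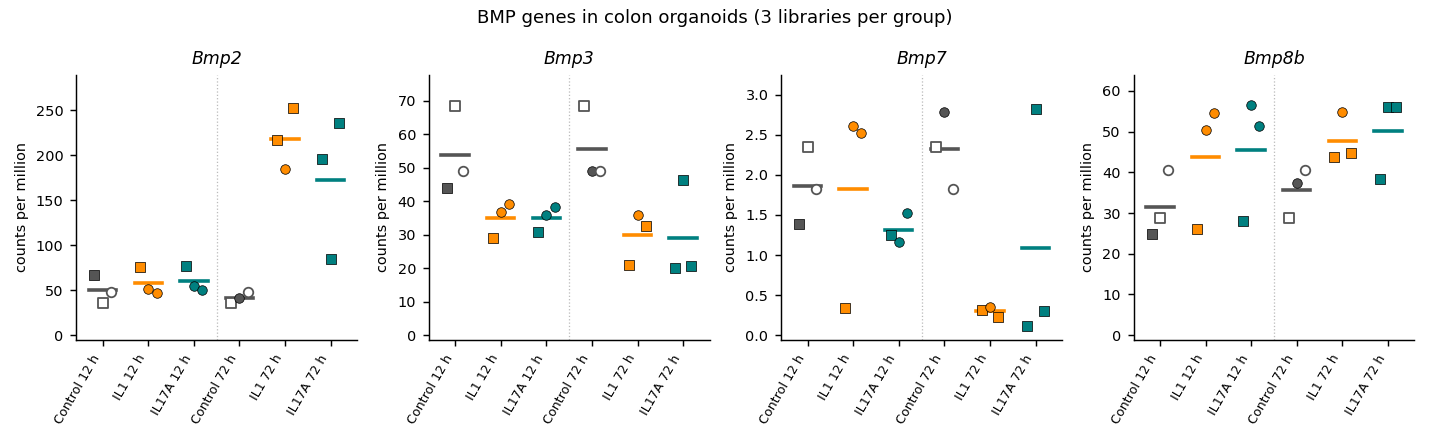
Points give the CPM of Bmp2, Bmp3, Bmp7 and Bmp8b in each organoid library and bars the mean of 3 libraries, for Control (grey), IL-1 (orange) and IL-17A (teal) at 12 h (left) and 72 h (right); squares are male and circles female libraries, and open grey symbols are the control libraries that occur at both times. Bmp2 lies at 35.3 to 77.3 CPM in all groups but the 72 h cytokine groups, which reach 84.6 to 252 CPM.

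Other pathway genes in organoids were called only at 72 h. With IL-1 the receptor Acvrl1 (1.48), the BMP target genes Id1 (1.62) and Smad7 (1.25), Gdf15 (2.93) among other BMP and GDF family ligands, Pcsk4 (1.73) among proprotein convertases and the procollagen enhancer Pcolce (1.26) rose, and Rgmb fell (-1.46). With IL-17A Acvrl1 (1.72) and Gdf15 (3.36) rose. None of 4 and 5 secreted BMP antagonists tested in these arms was called. All values are log2 fold changes called by limma, which called 23.0% of 13023 genes with IL-1 and 7.94% of 13073 with IL-17A. Beside these shares, 1 or 2 calls in a short list say little about the list.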

How the data were processed

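The authors checked reads with FastQC, mapped them uniquely to mm10 with STAR 2.5.3 and normalized gene counts with DESeq2 1.28.1. The counting program and strand setting are not given in the sources used here. As deposited by the authors, the values are a signal, gene counts divided by 1 size factor per library within each of 12 tables. All values were whole multiples of a library's step (100% within 0.1), so reads were recovered and gave depth, CPM and the input of edgeR 4.0.16 and DESeq2 1.42.0.

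Groups came from the sample labels. Each table was fitted by limma 3.58.1 with a trend on log2(value + 1), over genes with a mean of at least 10. In stromal cells Bmp8b reached this mean through the knockout libraries alone. Comparisons across tables used log2(CPM + 0.5) and a mean CPM of at least 0.5. They took 1 spread per gene from all stromal libraries, all organoid columns or, between cell types, all control libraries of both sorts. The fold changes are on these scales, which understate those of low genes. Calls needed an adjusted p (Benjamini-Hochberg, over all genes tested) under 0.05 together with a log2 fold change of 1 or more in size. Exact permutation of 2 against 2 libraries cannot go below p = 0.33, and of 3 against 3 below 0.1, so none is given. The fits were tested on simulated data. Positions and exon lengths are from GENCODE M21 on GRCm38. Named are the 8 members, Smad4, Bmpr1a, Gli1, called genes of the pathway lists and the 3 most similar genes per member; Ly6g, S100a8 and S100a9 were singled out after their values were seen. The members and lists were chosen with earlier results of these data known.

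The 4 rows without a gene name in both GS4M2 tables, up to 28.2% of values, were left out. In the proximal one, column names and the headings of a published list give opposite groups; the deposited names, whose GWTM2 reads match those of the GA3M2 table, were used. Same-numbered IL-1 and IL-17A libraries deviated together (r = 0.54 to 0.94 over 3 pairs per time). At 12 h, however, IL-1 library 3 had 0.80 with IL-17A library 4, and IL-1 library 4 had 0.78 with IL-17A library 3. At 72 h library 2 was female with IL-1 and male with IL-17A. Whether these numbers mark pairs cannot be told, and no source says what they share. Not every called gene of the pathway lists is reported here.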

Additional observations from a re-analysis of the deposited data

Results flagged for a closer look

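The effect of IL-1 on Bmp2 in organoids differed between 12 h and 72 h by 2.15 on the log2 scale in the interaction test (limma adjusted p = 0.037). It stood out because the same contrast gave different effects at 2 times, and 2 of the control libraries of these times hold the same reads.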

How the results depend on the processing

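No alternative turned the direction of a call. Of 234 counts of called members recomputed under alternatives other than leaving out 1 library, 204 stayed within 1.5 times, and of 128 that left out 1 library 96 did. Both numbers include counts of 0 that remained 0, which say nothing of how firm a call is. In the order proximal GS4M2, distal GS4M2, proximal GA3M2 and distal GA3M2 goblet cells, DESeq2 called 2, 1, 2 and 2 members, unadjusted p 2, 3, 3 and 3, and sex as a block (chosen after seeing the data, as were the settings on shared and near-identical libraries) 0, 1, 0 and 1, while a mean of at least 50 left 0 in the first. In GA3T cells a pseudocount of 0.1 left 1 member proximally and edgeR 0, and distally sex as a block gave 1, DESeq2 3 and unadjusted p 3. With IL-1 for 72 h a mean of at least 50 left 1 member and removal of the shared controls 0. With IL-17A for 72 h sex as a block, averaging of near-identical libraries and removal of the shared controls left 0 each. The IL-1 effect at 72 h minus 12 h had 0 members with near-identical libraries averaged and 0 without shared controls. That of IL-17A had 1 with 4 distinct controls, a setting in which the controls drop out of the difference.

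Leaving out 1 library gave 0 to 1 members in proximal and in distal GS4M2, 0 to 2 in proximal and 0 to 3 in distal GA3M2, 1 to 4 in proximal and 3 to 4 in distal GS4T, 0 to 2 in proximal and 0 to 1 in distal GA3T cells, 2 with IL-1 and 0 to 3 with IL-17A for 72 h, 0 to 3 between GWTT segments, 0 to 1 for the GS4T segment interaction, and 0 to 2 for each time interaction. Where it leaves 1 library in a group, that library is assumed to vary like the others.

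Replicate numbers were not taken as pairs in the main fits, since tables have 2 pairs at most and the first proximal and distal GWTT libraries differ in sex. Whether same-numbered libraries are pairs cannot be told. Same-numbered proximal and distal libraries of a genotype deviated together (r = 0.26 to 0.70). So did same-numbered control and cytokine libraries at 12 h (0.72 to 0.77), where control 4 had 0.77 and 0.79 with those numbered 3. At 72 h r was -0.15 to 0.225. With the replicate number as a block 2 members were called in proximal GS4M2, 2 in proximal GA3M2, 1 with IL-1 and 0 with IL-17A for 72 h, and 1 for the IL-17A time interaction. In the comparison of IL-1 with IL-17A this block changed no call of a member.

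The count of all genes called moved more. In proximal GA3T cells it was 55 with limma, 0 with edgeR and 966 with DESeq2, and after IL-17A for 72 h it was 1038, 869 and 2311. The effect of depth was not tested. Bmp6 and Bmp7 in organoids and Bmp6 in goblet cells lie near the minimum mean of 10 normalized counts. Reads were also few for Bmp1 in organoids (14 to 76) and in distal GWTM2 cells (22 and 27). The same holds for Bmp8b in GWTM2 (19 to 42) and GA3T cells (14 to 78).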
